A study of Zea mays with 48 samples.

Results

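Endosperm of maize (Zea mays) kernels from a pair of reciprocal crosses was compared at 5 days after pollination (DAP). The MB libraries came from ears of the inbred line Mo17 that received B73 pollen, with the genotype label Mo17xB73. The BM libraries came from ears of B73 that received Mo17 pollen, with the label B73xMo17. The parent written first was taken as the seed parent. All 6 endosperm libraries of the series, out of 48 libraries in 16 groups, were used: 3 replicates of each cross, each collected from at least 3 ears. The other libraries are embryos of the same crosses, of which those at 5 DAP, collected by hand (manual) or by laser capture microdissection (LCM), are set beside endosperm at the end. No treatment other than the crosses, and no transgene or mutant, is named in the labels. How endosperm was separated from the kernel is not given, and nothing says that the replicates came from different plants. The p-values therefore measure the spread between these samples, which may be partly technical.

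Endosperm is the nutritive tissue of the seed and arises when a sperm fertilises the diploid central cell. Each nucleus holds 2 genomes of the seed parent and 1 of the pollen parent, so MB endosperm carries 2 Mo17 genomes and 1 B73 genome and BM endosperm 2 B73 genomes and 1 Mo17 genome. The embryo holds 1 genome of each parent in both crosses. A transcript made from the B73 allele alone, in proportion to its copies, would have a log2 fold change of -1 for MB over BM, and one made from the Mo17 allele alone would have 1. Some endosperm genes are in addition imprinted, that is, transcribed mainly from the allele of the seed or pollen parent. The counts are not split by allele. A difference between the crosses can therefore hold effects of line, dose and parent of origin, which cannot be told apart here. The build used for alignment is not given, and whether reads of Mo17 and B73 alleles were counted equally well was not tested. In the days after fertilisation, endosperm becomes cellular and forms domains: a basal transfer layer that takes up sugar and amino acids from the mother plant, a region around the embryo, an outer aleurone layer and a starchy centre that later fills with starch and zein storage proteins.

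The 3 MB libraries held 9062850, 10862700 and 14489244 gene counts, and the 3 BM libraries 7130090, 10948431 and 11462465. Libraries of the same cross correlated at 0.974 or more over genes, and libraries of different crosses at 0.93 to 0.951. No pair of libraries of the same cross agreed within sampling noise. Endosperm transcripts were present in both crosses: the gamma zein gz27 reached 567 to 757 CPM, the share of a library's gene counts scaled to 1000000, in MB and 686 to 1710 CPM in BM. Summed embryo markers stood at 159, 158 and 178 CPM in MB and 153, 134 and 154 CPM in BM, against 586 to 797 CPM in manual MB embryos and 329 to 480 CPM in manual BM embryos. A read was found for 17 of 21 embryo markers, of which 6 were tested, vp1 higher (log2 fold change 0.48) and glb1 lower (-1.23) in MB, the call of glb1 being lost without BM replicate 1 or 3 or MB replicate 1 or 3. Ovule and seed coat markers summed to 262, 216 and 184 CPM in MB and 195, 214 and 220 CPM in BM, and none of the 6 tested was called, nor was any past an unadjusted p of 0.05. Without BM replicate 1 or MB replicate 1 or 3, 1 ovule marker was higher, and without MB replicate 1 another was lower. Markers of photosynthetic tissue summed to 4.05 to 6.35 CPM in MB and 8.4 to 12.6 CPM in BM, and 1 of 3 tested (Cab-m7) was lower in MB. The part of these levels in the results below was not tested. In whole tissue, fewer cells of a type and less RNA per cell cannot be told apart.

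The crosses differed at many genes, and large differences were mostly losses in MB. Of 19724 genes tested with edgeR's quasi-likelihood test, 4200 (21.3%) passed an adjusted p of 0.05 after Benjamini-Hochberg correction and are termed called. Of these, 1786 (9.05% of the genes tested) were higher and 2414 (12.2%) lower in MB. The counts of each gene list below stand against these shares of all genes. The values of the crosses did not overlap at 7982 genes (40.5%), with MB above BM at 19.7% and below at 20.8%. Below an absolute log2 fold change of 0.5, calls were mostly gains in MB, with 821 genes higher and 547 lower. From 0.5 to 1.5, the class that holds the size of a 2 to 1 ratio of genomes, 821 were higher and 1286 lower. From 1.5 to 3 the counts were 126 and 401, and at 3 or more they were 18 and 180. Differences of at least 1 were thus called for 1420 genes (7.2%), 367 higher (1.86%) and 1053 lower (5.34%) in MB, and 74.2% of these calls were lower. Calls became fewer through this range, as did the genes tested. Called lower were 336 genes by 0.75 to 1, 287 by 1 to 1.25 and 185 by 1.25 to 1.5, of 618, 441 and 274 tested. In the same steps 215, 133 and 90 were called higher, of 393, 198 and 116 tested. The part of genome dose in these counts was not tested. The median log2 fold change of all genes was 0.01. The count of calls fell to 2436, 2609 and 2682 without BM replicates 2, 3 and 1, and to 822 when 1 fit over all 48 libraries set the spread.

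**Figure D1:**
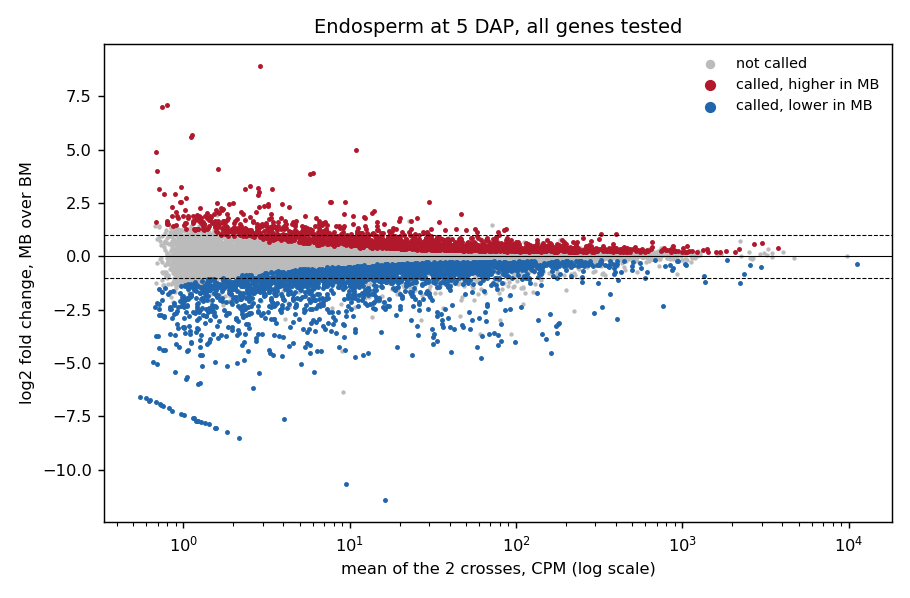
Log2 fold change of MB over BM (vertical axis) against the mean of the crosses in CPM (horizontal axis, log scale) for the genes tested in endosperm at 5 DAP. Each point is a gene, coloured where the adjusted p is under 0.05, with dashed lines at 1 and -1; beyond those lines 367 called genes lie above and 1053 below.

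**Figure D2:**
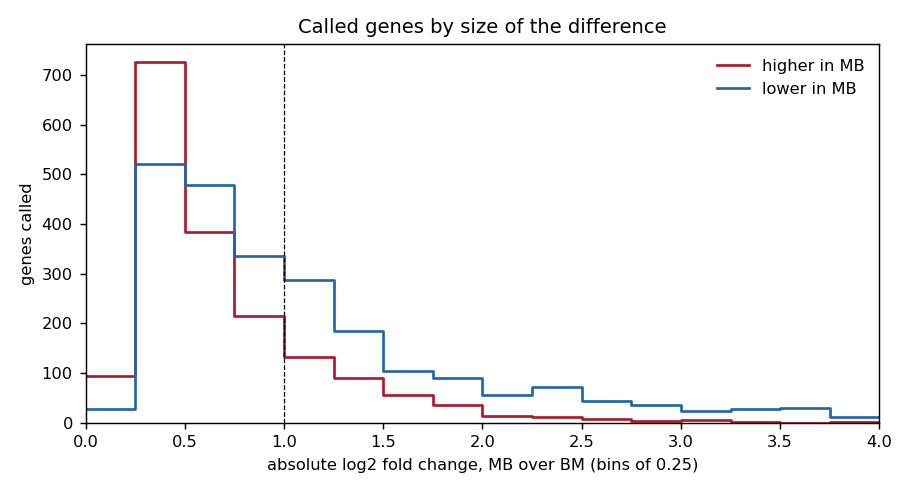
Number of called genes (vertical axis) by the absolute log2 fold change in bins of 0.25 (horizontal axis, drawn to 4), genes higher in MB in red and lower in MB in blue. The line for genes lower in MB runs above the other from 0.5 onward. Both lines fall through 1 (dashed), as does the number of genes tested.

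Genes of the basal transfer layer were lower in MB. Cells of this layer carry wall ingrowths and secrete small cysteine-rich and antimicrobial proteins. Of 12 genes in the list, all tested, 10 fell in MB and none rose, with a median log2 fold change of -2.8, against 12.2% lower and a median of 0.01 over all genes. The sum of the list was 261, 595 and 143 CPM in MB and 1880, 2630 and 2420 CPM in BM. Every BM library was thus above every MB library, and within MB the second replicate was highest and the third lowest, in the sum and for 11 of 12 genes. Reads of near-identical copies in these gene families may be shared between members, so single genes are less certain than the sum.

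tcrr-1 (GRMZM2G016145), a response regulator of transfer cells, had 0.993, 4.05 and 0.69 CPM in MB and 34.5, 51.3 and 50 CPM in BM. Its log2 fold change was -4.62 ± 0.56 (SE; adjusted p = 0.0065, edgeR), and the crosses did not overlap. betl3 (GRMZM2G175976), which encodes a small secreted protein of the layer, had 5.3, 15.3 and 2.14 CPM in MB and 56.9, 95.2 and 65.4 CPM in BM. betl10 (GRMZM2G091445), another gene named for the layer, had 25.3, 58.5 and 15.5 CPM in MB and 266, 362 and 316 CPM in BM. Both were far below BM in every MB library, with log2 fold changes of -3.31 ± 0.72 and -3.28 ± 0.56 (adjusted p = 0.042 and 0.024, edgeR). MEG1 (GRMZM2G354335), a maternally expressed gene whose peptide takes part in nutrient uptake, had 12.5, 31.6 and 5.38 CPM in MB and 101, 183 and 155 CPM in BM. It fell by 3.19 ± 0.72 on the log2 scale (adjusted p = 0.047, edgeR). The remaining called members, bap2, betl4, a pair of genes both named meg2, BET1 and ebe2, fell by 1.9 to 2.93. ebe1 was level, with a log2 fold change of -0.05.

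The number of transfer layer genes called depended on single libraries. The 3 MB values spread widely, and most adjusted p-values lay near 0.05. It was 1 without any one of BM replicates 1, 2 and 3 or MB replicate 1, 4 without MB replicate 3 and 11 without MB replicate 2. It was 11 by DESeq2, 3 without the filter on low counts and 6 in the fit over all 48 libraries. The direction of all 10 held in each of these settings.

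Genes of the embryo-surrounding region, which lines the embryo and encodes small secreted peptides, did not separate the crosses. Of 5 genes, 4 were tested and none was called, with a median log2 fold change of 0.55. Their sum was 126, 446 and 42.6 CPM in MB and 41.8, 57.4 and 308 CPM in BM. MB replicate 2 and BM replicate 3 were the high libraries and the crosses overlapped. Within MB, replicate 2 was highest and replicate 3 lowest for all 5 genes, the same order as in the transfer layer list. The source of this shared order was not tested. ESR1 (GRMZM2G315601) had 45.6, 177 and 17.9 CPM in MB and 17.8, 26.2 and 129 CPM in BM. The related esr1, ESR3 and esr6 were also highest in MB replicate 2 and in BM replicate 3.

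**Figure D3:**
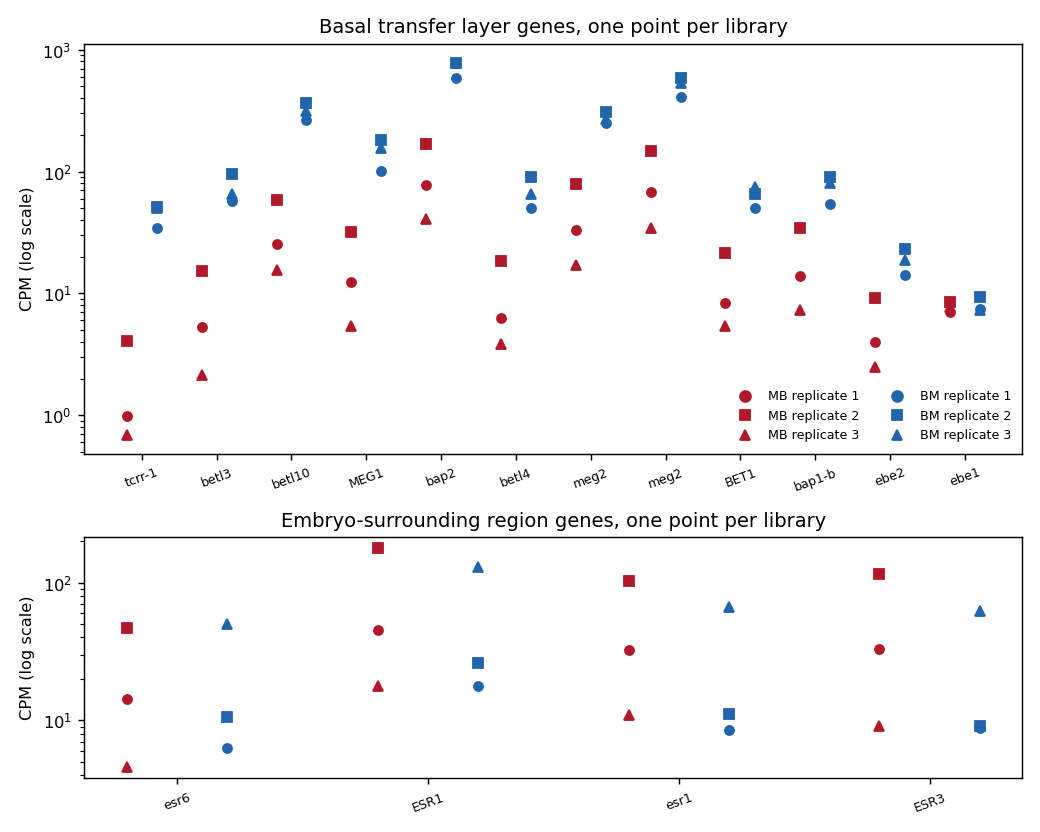
CPM on a log scale (vertical axis) of the tested genes of the basal transfer layer (upper panel) and of the embryo-surrounding region (lower panel), 1 symbol per library, MB in red left of BM in blue; a pair of genes shares the name meg2. All but ebe1 of the upper panel lie below BM in every MB library, while the libraries of the lower panel mix, with MB replicate 2 and BM replicate 3 high.

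Sugar entry into endosperm begins with cell wall invertase, which splits the sucrose that the mother plant delivers. Among 9 tested genes for sucrose cleavage and uptake, 3 rose and 3 fell in MB, and the largest difference was that of the invertase of the transfer layer. This gene, Incw (GRMZM2G119689), also listed as mn1 for the miniature seed of its mutant, had 7.83, 29.6 and 4.62 CPM in MB and 218, 411 and 303 CPM in BM. Its log2 fold change was -4.51 ± 0.81 (adjusted p = 0.028, edgeR), with the same order of MB libraries as the transfer layer genes. The related incw1 (GRMZM2G139300) went the other way, with 14.1, 18.3 and 30.8 CPM in MB and 9.68, 5.94 and 8.38 CPM in BM (log2 fold change 1.43 ± 0.35, adjusted p = 0.034, edgeR). Each invertase lost its call without any 1 BM library, Incw also without MB replicate 1 or 3 and incw1 without MB replicate 2. sus2 (GRMZM2G318780), a sucrose synthase, fell by 0.88 (a call lost without BM replicate 1 or 2 or MB replicate 2), and the sucrose transporter sut1 (GRMZM2G034302) rose by 0.63, with 71.4 to 86.0 CPM in MB and 44.3 to 53.1 CPM in BM. The sum of the list was 337, 421 and 370 CPM in MB and 752, 723 and 747 CPM in BM. This gap rests largely on Incw, which alone held 218, 411 and 303 CPM of the BM sums. Of the list, 1 gene rose without BM replicate 1 or 2 or MB replicate 2, while none fell without BM replicate 1 and 1 fell without BM replicate 2 or 3 or MB replicate 3.

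The aleurone, the outermost endosperm layer, was represented by 9 tested genes, of which 1 rose and 1 fell. Nkd1 (GRMZM2G129261), the naked endosperm1 transcription factor that aleurone identity requires, had 434, 477 and 396 CPM in MB and 213, 207 and 217 CPM in BM. The crosses were far apart, with little spread in either (log2 fold change 1.03 ± 0.07, adjusted p = 1.5e-05, edgeR). Sal1 (GRMZM2G117935), whose mutant has extra aleurone layers, fell by 0.28 ± 0.07, with 94.6 to 104 CPM in MB and 114 to 122 CPM in BM (adjusted p = 0.021, edgeR), a call lost without BM replicate 1 or 3 or MB replicate 2. Without BM replicate 3, 2 aleurone genes rose.

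At 5 DAP, most zein genes were silent or nearly so. Of 26 zein genes 14 had a read and 4 were tested, and none of the 4 was called, although all had negative log2 fold changes and their median was -3.6. At an unadjusted p under 0.05 there were 2, zp15 and dzs18. The count depended on BM replicate 2: without it, 8 zein genes were called lower in MB. DESeq2 called 2 lower, and the fit over all 48 libraries 3. gz27 (GRMZM2G138727), the most abundant, had 567, 757 and 686 CPM in MB and 1710, 686 and 1210 CPM in BM. zp15 (GRMZM2G086294) had 11.5, 15 and 8.49 CPM in MB and 134, 17.4 and 89 CPM in BM. BM replicate 2 stood apart in this group and came close to the MB libraries. A further pair was picked after its values were seen: dzs18 had 0.11, 0.46 and 0.069 CPM in MB and 34.9, 2.28 and 16.6 CPM in BM, and the sucrose synthase gene sh1 had 59.4, 93.7 and 81.8 CPM in MB and 225, 14.7 and 159 CPM in BM. BM replicate 2 was again the lowest BM library for both, and for sh1 it lay below every MB library. Zein genes share long stretches of sequence, so reads may be split between copies.

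Among 7 tested regulators of storage genes, Nkd1 rose and ohp1 fell. ohp1 (GRMZM2G016150), a bZIP partner of the zein activator o2, had 17, 14.9 and 15.5 CPM in MB and 34.6, 32.6 and 32.5 CPM in BM (log2 fold change -1.08 ± 0.1, adjusted p = 9.3e-05, edgeR). No MB library reached the lowest BM library. Of 20 genes matched to starch synthesis, 1 rose and 4 fell, with a median log2 fold change of -0.26. GBSSIIa (GRMZM2G008263), a granule-bound starch synthase, rose by 0.68. zpu1 (GRMZM2G158043), a pullulanase-type debranching enzyme, fell by 1.02, and the branching enzyme sbe1 (GRMZM2G088737) by 0.53. The gene listed as ae1 (GRMZM2G039942), which its symbol alone put in this group, had 1.39 ± 0.877 CPM in MB and 3.44 ± 0.995 CPM in BM (SD, n = 3) and fell by 1.39. Calls of ae1 and sbe1 were lost without any 1 BM library, without MB replicate 3 and by DESeq2; ae1 was also lost without MB replicate 1 and sbe1 without MB replicate 2. The call of zpu1 was lost without BM replicate 2. The starch count lower was 2 without BM replicate 1 or 3 and 1 without BM replicate 2, and the count higher was 3 without MB replicate 3. Storage regulators had 2 calls lower without BM replicate 2 or MB replicate 1 or 2.

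Polycomb complexes place a silencing mark on histone H3, and in maize endosperm some of their subunits are themselves imprinted. Of 7 Polycomb genes tested, 2 fell in MB (28.6%, against 12.2% of all genes) and none rose. mez1 (GRMZM2G157820), an E(z)-type methyltransferase gene expressed from the maternal allele in endosperm, had 50.4, 56.1 and 54.2 CPM in MB and 93.1, 80.7 and 87.2 CPM in BM. fie1 (GRMZM2G118205), its WD-repeat partner and maternally expressed in endosperm as well, had 307, 308 and 287 CPM in MB and 413, 404 and 421 CPM in BM. The crosses were well apart for both, with log2 fold changes of -0.71 ± 0.08 and -0.47 ± 0.06 (adjusted p = 0.00035 and 0.00043, edgeR). Together with MEG1, which is also in the transfer layer list, these made 3 of 5 tested imprinted genes that fell (60%, against 12.2% of all genes). None of the 5 rose, and the list median was -0.47. dmt101, which the planned pattern of this list also named, was not among the 5 and rose by 0.52. That none rose therefore depends on leaving it out. The call of MEG1 was lost without any 1 BM library and without MB replicate 1 or 3.

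Of 22 tested genes of DNA methylation and small RNA silencing, 4 rose and 2 fell, with a median log2 fold change of 0.11. dmt101 (GRMZM2G334041), a maintenance-type DNA methyltransferase, had 57.6, 71.9 and 57.3 CPM in MB and 44.5, 43.7 and 41.4 CPM in BM (log2 fold change 0.52 ± 0.1, adjusted p = 0.0035, edgeR). Its crosses did not overlap, but the call was lost with limma on the authors' FPKM values. rdr6 (GRMZM2G145201), an RNA-dependent RNA polymerase, rose by 0.45, while the methyl-CpG-binding genes mbd123 (GRMZM2G119802) and mbd105 (GRMZM2G476933) fell by 1.2 and 0.55. The call of mbd123 was lost without any 1 BM library or MB replicate 3, and that of rdr6 without BM replicate 2 or 3 or MB replicate 2. Of 51 chromatin genes 3 rose and 5 fell, all by less than 0.7. The largest were the acetyltransferase hac108 (GRMZM2G044126), which fell by 0.65, and the linker histone gene hon102 (GRMZM2G401308, also listed as his1a), which rose by 0.47. hon102 had 956 to 1080 CPM in MB and 702 to 783 CPM in BM. Of 12 histone genes 2 rose and 1 fell; the histone H2B gene his2b5 (GRMZM2G342515) had 313, 246 and 282 CPM in MB and 491, 461 and 528 CPM in BM and fell by 0.82 ± 0.1 (adjusted p = 0.00069, edgeR). Single libraries moved these counts. For DNA methylation, 2 rose without BM replicate 2 or 3 or MB replicate 2, and 1 fell without any 1 BM library. For chromatin, 1 rose without BM replicate 1 or 2 or MB replicate 3 and 5 without MB replicate 1, while 1 fell without BM replicate 1, 2 without BM replicate 3 and 3 without BM replicate 2 or MB replicate 2 or 3. For histones, 1 rose without BM replicate 1 or 2 and 4 without MB replicate 2, and 2 fell without MB replicate 1.

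Auxin made in endosperm takes part in its growth, and YUCCA flavin monooxygenases carry out a main step of its synthesis. Of 40 auxin genes tested, 9 fell and 2 rose, a share lower of 22.5% against 12.2% of all genes, and the list median was -0.11. yuc (GRMZM2G091819), an auxin synthesis gene of the YUCCA family, had 500, 370 and 307 CPM in MB and 843, 720 and 814 CPM in BM (log2 fold change -1.02 ± 0.18, adjusted p = 0.016, edgeR). No MB library came near BM, though the call was lost without BM replicate 1 or 3 or MB replicate 2. abp5 (GRMZM2G078508), which encodes an auxin-binding protein, had 3.2, 3.96 and 4.69 CPM in MB and 16.4, 16.5 and 14.2 CPM in BM. abp4 (GRMZM2G064371), of the same family, had 13.9, 13.3 and 11.5 CPM in MB and 28.6, 27.5 and 27.6 CPM in BM. The pair fell by 1.97 ± 0.18 and 1.12 ± 0.11 on the log2 scale (adjusted p = 6.3e-05 and 0.00012, edgeR). AUX17 (GRMZM2G079957) fell by 1.73. The number lower was 5 without BM replicate 3 and 2 in the fit over all 48 libraries, and the number higher was 4 without MB replicate 3.

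Of 21 cytokinin genes 2 fell (9.52%, against 12.2% of all genes), the response regulator genes crr1 (GRMZM2G040736) by 1.31 and RR10 (GRMZM2G126834) by 0.47, and none rose. Of 13 genes of gibberellin, abscisic acid and ethylene 3 rose (23.1%, against 9.05% of all genes) and none fell: the ethylene receptor ERS14 (GRMZM2G102601) by 0.58, the seed maturation factor vp1 (GRMZM2G133398) by 0.48, and vp9 (GRMZM2G454952), of carotenoid synthesis, by 0.43. Most of these calls rested on single libraries. Those of crr1, ERS14 and vp9 were lost by DESeq2 and without BM replicate 1 or 2 or MB replicate 2. Those of crr1 and vp9 were also lost without BM replicate 3, those of crr1 and ERS14 without MB replicate 3, and that of RR10 without BM replicate 3. The cytokinin count lower was thus 0 to 1 without any 1 library other than MB replicate 1, and 4 without that one; 1 gene rose without BM replicate 1 or MB replicate 2. In the other list, 1 rose without BM replicate 1 or 2 or MB replicate 2, and 5 rose and 2 fell without MB replicate 1.

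Of 106 tested genes in 6 transcription factor families, 22 were called (20.8%, against 21.3% of all genes), 6 higher and 16 lower in MB. Of 16 WRKY genes 4 fell (25%, against 12.2% of all genes) and 1 rose. The 4 became 2 without BM replicate 1 or 2 or MB replicate 2, and in the fit over all 48 libraries, which called none higher. WRKY104 (GRMZM2G169149) had 2.21, 4.05 and 2.14 CPM in MB and 0.421, 1 and 0.349 CPM in BM, while WRKY72 (GRMZM5G816457) had 3.86, 3.96 and 3.8 CPM in MB and 9.82, 13.2 and 11.5 CPM in BM. Neither pair of ranges overlapped, and the log2 fold changes were 2.17 ± 0.45 and -1.59 ± 0.18 (adjusted p = 0.0072 and 0.00022, edgeR). Of 30 MYB genes 4 fell and 2 rose, MYB51 (GRMZM5G803355) to 0.129 ± 0.139 CPM in MB, against 2.39 ± 0.735 CPM in BM (SD, n = 3). Of 20 homeobox and YABBY genes 3 fell and 2 rose. HB115 (GRMZM2G021339) had 0.331, 0.552 and 0.138 CPM in MB and 4.49, 2.92 and 4.54 CPM in BM and fell by 3.58. The epidermal homeodomain gene ocl1 (GRMZM2G026643) was the abundant one, with 138, 132 and 145 CPM in MB and 80.6, 97.1 and 90.4 CPM in BM, and rose by 0.62; its relative ocl5 (GRMZM2G130442) rose by 0.86. Of 17 bHLH genes 3 fell, bHLH108 (GRMZM2G119823) by 2.7, and of 14 NAC genes 2 fell, NAC1 (GRMZM2G014653) by 1.04; none rose in either family. The call of bHLH108 was lost without BM replicate 1. Among 9 MADS-box genes zmm19 (GRMZM2G370777) rose by 0.5 and none fell. Other family counts also moved with single libraries. The MYB count lower was 2 without BM replicate 2 or 3 or MB replicate 2 or 3, and the count higher 1 without any 1 BM library. For bHLH genes the count lower was 0 without BM replicate 1, 1 without BM replicate 2 or MB replicate 2, and 5 without MB replicate 1. For NAC genes it was 1 without BM replicate 1 or MB replicate 2. The MADS-box count higher was 2 without BM replicate 1 and 3 without MB replicate 1.

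Heat shock proteins are chaperones that help other proteins fold, and some are made during seed development without stress. Of 24 heat shock genes tested, 10 fell and 3 rose, a share lower of 41.7% against 12.2% of all genes. Their median log2 fold change was -0.66. In manual embryos 11 of 22 tested were lower in MB and 3 higher, where 14.4% of all genes were lower. In LCM embryos 6 of 22 were lower and 0 higher, where 3.82% of all genes were lower. The largest changes were in genes with little transcript: hsp82 (GRMZM5G833699) had 0.552, 0.736 and 0.276 CPM in MB and 2.95, 5.21 and 1.57 CPM in BM, and hsp18 (GRMZM2G149647) had 0.662, 0.368 and 0.276 CPM in MB and 3.51, 2.47 and 1.92 CPM in BM. Every MB library was below every BM library for both, and they fell by 2.68 ± 0.53 and 2.61 ± 0.43 (adjusted p = 0.0064 and 0.002, edgeR). The summed level of the list overlapped between the crosses, at 6700, 6450 and 6800 CPM in MB and 6840, 6690 and 6560 CPM in BM. Calls in this list ranged from 2 to 11 lower under the alternative settings, lowest in the fit over all 48 libraries, and 1 gene rose without BM replicate 2.

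Of 18 tested genes for water and nutrient transport, 6 fell, all of them aquaporins, and 1 rose. TIP3-1 (GRMZM2G305446), an aquaporin of the vacuole membrane of seeds, had 0.772, 1.29 and 1.1 CPM in MB and 31.1, 18.1 and 24.9 CPM in BM. The crosses were far apart and the MB libraries alike (log2 fold change -4.51 ± 0.26, adjusted p = 1.1e-05, edgeR). The plasma membrane aquaporins pip2-5 (GRMZM2G178693) and PIP1-1 (GRMZM2G174807) fell by 1.45 and 1.19. NIP1-1 (GRMZM2G041980), another aquaporin, rose by 1.25, with 6.14 to 9.05 CPM in MB and 2.38 to 3.84 CPM in BM. The fit over all 48 libraries called 2 lower, and 3 were higher without BM replicate 2.

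Of 38 tested genes for enzymes of carbon and nitrogen metabolism, 9 fell (23.7%, against 12.2% of all genes) and 4 rose. The median log2 fold change was 0.02. C4ppdkZm1 (GRMZM2G306345), a pyruvate, phosphate dikinase that in endosperm links pyruvate to amino acid and starch metabolism, had 142, 102 and 72.6 CPM in MB and 596, 524 and 540 CPM in BM. lkrsdh1 (GRMZM2G181362), the lysine-degrading enzyme that o2 activates, had 12.5, 7.09 and 8.49 CPM in MB and 86.3, 47.8 and 48.9 CPM in BM. gln2 (GRMZM2G024104), a glutamine synthetase, had 14.6, 18.9 and 8.97 CPM in MB and 62.4, 62.7 and 78.9 CPM in BM. All 3 were lower in every MB library, with log2 fold changes of -2.4 ± 0.26, -2.71 ± 0.34 and -2.3 ± 0.26 (adjusted p = 0.0043, 0.0056 and 0.0021, edgeR). Against these, me4 (GRMZM2G118770), a malic enzyme gene, rose by 1.33 ± 0.25. adh1 (GRMZM2G442658), an alcohol dehydrogenase of low-oxygen metabolism that was picked for its abundance after its values were seen, had 3390, 3760 and 3900 CPM in MB and 2500, 2160 and 2430 CPM in BM. It rose by 0.64 ± 0.07 (adjusted p = 0.00036, edgeR), without overlap. The list's count higher was 8 without MB replicate 3, and its count lower 3 in the fit over all 48 libraries.

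Dividing endosperm nuclei were compared through 25 genes of replication and the cell cycle, of which 3 rose and 4 fell, with a median of 0.07. The cyclins cycD4 (GRMZM2G133413) and Cyclin-SDS (GRMZM2G093157) fell by 2.01 and 1.39 at levels of 7.33 CPM or less in every library. RBR2 (GRMZM2G153150), a retinoblastoma-related gene, fell by 0.79, and the origin recognition gene orc2 (GRMZM2G117238) rose by 0.65. Among 35 ribosomal protein genes 1 rose and 1 fell (2.86% each), with a median of 0.11. Their sum was 15400, 14700 and 15700 CPM in MB and 14100, 14600 and 13900 CPM in BM. Of 15 lipid genes 3 rose and 2 fell; ACP (GRMZM2G091715), an acyl carrier protein gene, had 748, 780 and 743 CPM in MB and 538, 569 and 570 CPM in BM and rose by 0.43, while DGAT1-2 (GRMZM2G169089), the acyltransferase that completes oil synthesis, fell by 0.73. Of 41 defence and detoxification genes 5 rose and 2 fell. The proteinase inhibitor MPI (GRMZM2G028393) had 14.2, 6.9 and 3.24 CPM in MB and 56, 40.7 and 35.5 CPM in BM and fell by 2.5, and aos3 (GRMZM2G376661), an allene oxide synthase of jasmonate synthesis, rose by 1.17. The anthocyanin list had 4 tested genes, of which the glutathione transferase gene bz2 (GRMZM2G016241) fell by 0.94. Calls of RBR2 (without BM replicate 3), DGAT1-2 (without BM replicate 1 or 2 or MB replicate 2 or 3, and by DESeq2), MPI (without any 1 BM library or MB replicate 2) and bz2 (without BM replicate 1) rested on single libraries. Of 24 cytoskeletal and ubiquitous genes 5 rose and 3 fell, none by more than 0.76 (tub3, GRMZM2G108766, a tubulin). Counts also moved without single libraries. Without MB replicate 1, 6 cell cycle genes rose and 7 defence genes fell. Without MB replicate 2, 7 ribosomal protein genes rose, while none rose without BM replicate 1 or 3 and none fell without BM replicate 2 or 3 or MB replicate 2. The lipid count lower was 0 without BM replicate 2 or MB replicate 2 and 1 without BM replicate 1 or 3 or MB replicate 3. The defence count higher was 2 without BM replicate 3 and 3 without BM replicate 1 or 2 or MB replicate 2, and its count lower 1 without BM replicate 2 or MB replicate 2. The cytoskeletal count higher was 2 without BM replicate 2 and 3 without BM replicate 1 or 3, and its count lower 5 without MB replicate 3.

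**Figure D4:**
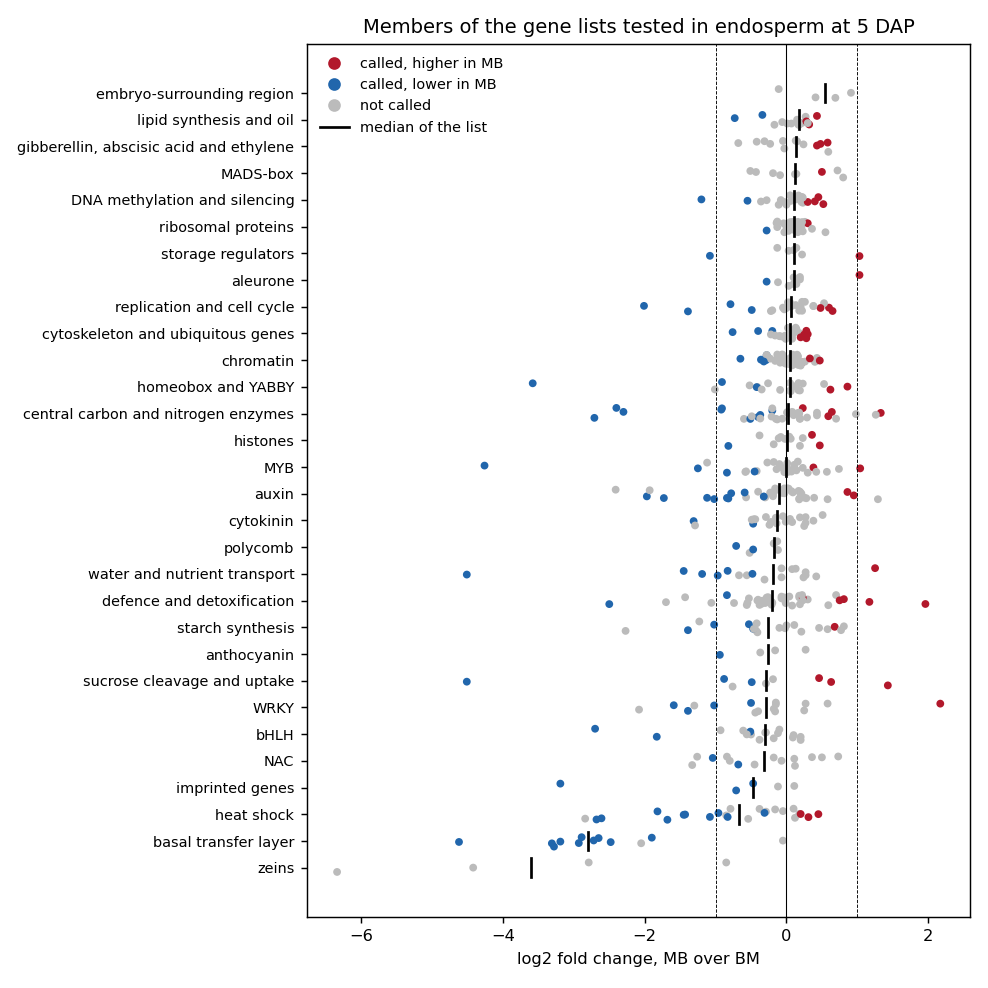
Log2 fold change of MB over BM (horizontal axis) of each tested gene of the 30 lists (rows, ordered by median), red where called higher in MB, blue where called lower and grey where not called. Short bars mark list medians and dashed lines 1 and -1; the basal transfer layer (10 of 12 lower) lies apart at a median of -2.8, and the zeins below it rest on 4 uncalled genes.

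Among genes with an informative name, a mean of at least 10 CPM in the higher cross, a difference of at least 1 and no overlap, 12 were higher and 64 lower in MB. The 12 higher genes rose by 1.01 to 1.96. prp2 (GRMZM2G102356) led with 74.9, 66.2 and 82.4 CPM in MB and 18, 20 and 19.3 CPM in BM, all MB libraries far above BM. pdi4 (GRMZM2G033829), a protein disulfide isomerase that folds secreted proteins, had 60.6, 60.5 and 64.7 CPM in MB and 27.3, 24.7 and 24.5 CPM in BM. mwp1 (GRMZM2G082264), a KANADI factor of organ polarity, had 35.1, 38.5 and 41.5 CPM in MB and 18.1, 18.9 and 16.5 CPM in BM. The replicates of these genes lay close together, and the log2 fold changes were 1.96 ± 0.11, 1.28 ± 0.09 and 1.1 ± 0.11 (adjusted p = 8.7e-06, 1.8e-05 and 0.00011, edgeR). aba1 (GRMZM2G136910) had 30.8, 43.5 and 19.4 CPM in MB and 10.8, 9.32 and 6.72 CPM in BM. expa2 (GRMZM2G105844), an expansin that loosens cell walls, had 84.9, 162 and 121 CPM in MB and 53.4, 59.2 and 37.3 CPM in BM. Both rose, by 1.8 ± 0.32 and 1.29 ± 0.29 (adjusted p = 0.012 and 0.038, edgeR), with a wide spread in MB. The others were incw1, me4, Nkd1, the receptor gene fea3 (GRMZM2G166524), the oil body gene OBAP1A (GRMZM2G044627), a cellulase gene (GRMZM2G009025) and OFP16 (GRMZM2G055257). Calls of expa2, fea3, incw1 and OFP16 were lost without any 1 BM library. Those of fea3, incw1 and OFP16 were also lost without MB replicate 2, those of expa2 and OFP16 without MB replicate 3, and that of aba1 without BM replicate 2.

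The 12 named genes with the largest losses fell by 3.19 to 4.62. Besides tcrr-1, Incw, TIP3-1, betl3, betl10 and MEG1, they included 2 more genes named for the basal endosperm. bap-3b (GRMZM2G133370), of a family of antifungal peptides, had 6.84, 20.2 and 3.11 CPM in MB and 110, 178 and 168 CPM in BM. betl-9 (GRMZM2G087413) had 16.6, 39.9 and 8.83 CPM in MB and 226, 276 and 290 CPM in BM. Neither was in the transfer layer list, yet both had the order of that list, with MB replicate 2 highest and replicate 3 lowest. BURP7 (GRMZM2G032145), a BURP-domain protein gene, had 18.5, 31.8 and 8.28 CPM in MB and 266, 273 and 306 CPM in BM and fell by 3.89 ± 0.51 (adjusted p = 0.012, edgeR). dhar2 (GRMZM2G005710), a dehydroascorbate reductase, had 8.28, 9.67 and 3.93 CPM in MB and 62.4, 56.4 and 74 CPM in BM. FIP1 (GRMZM2G046782) and Cel24A (GRMZM2G482256) stayed under 1.2 CPM in every MB library, against 13.4 to 20.9 CPM and 7.71 to 12.6 CPM in BM. Calls of betl3, betl10, MEG1, bap-3b and betl-9 were lost without any 1 BM library or MB replicate 1.

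Larger differences were found among genes without an informative name. GRMZM2G118873 had 23.9, 23.1 and 16.7 CPM in MB and 0.701, 0.457 and 0.785 CPM in BM (log2 fold change 5.0 ± 0.25, adjusted p = 4.5e-06, edgeR). GRMZM2G421463, GRMZM2G379035 and GRMZM2G426732 rose by 3.88, 3.84 and 2.56, the call of the last being lost without any 1 BM library. GRMZM2G009854 had 3.42, 8.19 and 1.73 CPM in MB and 94.4, 128 and 132 CPM in BM, a fall by 4.79, and GRMZM2G046952 fell by 5.41. Near absence was defined as at most 3 counts over the 3 libraries of a cross and at least 5 CPM in the other. In MB 5 such genes were found and in BM 1. GRMZM5G871471 and GRMZM5G887243 had no count in any MB library and 32.7 ± 8.91 and 19.1 ± 2.26 CPM in BM (SD, n = 3). Against the 3 counts that a group without counts allows, 0.0872 CPM in MB, they were at least 375-fold and 219-fold lower in MB. GRMZM2G549443 had 1 count in MB, GRMZM2G045638 had 2 and AF546188.1_FG007 had 3, and AF546188.1_FG007 was also at 1 count in BM replicate 2. GRMZM2G085038 had 5.19, 6.44 and 5.59 CPM in MB and no count in BM, at least 56.5-fold higher in MB. Manual embryos had this transcript in both crosses, at 30.1 CPM in MB and 25.5 CPM in BM, whereas GRMZM5G871471 and GRMZM5G887243 were at 0.186 and 0 CPM in manual MB embryos and 21.8 and 2.89 CPM in manual BM embryos.

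Levels between genes can be compared only per length, in the authors' FPKM. The genes in this paragraph were picked for abundance after their values were seen. grp1 (GRMZM2G080603), a glycine-rich protein gene, led with 9010 FPKM in MB and 12300 FPKM in BM and fell by 0.35 ± 0.06. GRMZM2G091054, at 6440 FPKM in MB and 9030 FPKM in BM, fell by 0.5 ± 0.09 (adjusted p = 0.0066, edgeR). GRMZM2G046532, at 3240 FPKM in MB and 7580 FPKM in BM, fell by 1.24 ± 0.08 (adjusted p = 1.5e-05, edgeR). fl3 (GRMZM2G006585), the floury3 gene of endosperm storage, stood at 979 FPKM in MB and 2250 FPKM in BM. Its counts were 877, 872 and 744 CPM in MB and 1870, 1720 and 2140 CPM in BM, a fall by 1.21 ± 0.09 (adjusted p = 5.5e-05, edgeR) without overlap. sdh1 (GRMZM2G175423), sorbitol dehydrogenase of sugar metabolism, stood at 1500 FPKM in MB and 2000 FPKM in BM and fell by 0.43. GRMZM2G406552, at 729 and 3620 FPKM, fell by 2.35. Other abundant genes were called higher in MB. These were adh1 by 0.64, ald1 (GRMZM2G057823) by 0.59, AC195340.3_FG001 by 0.39 and GRMZM2G108348 by 0.2.

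Embryo cells of the same age hold 1 genome of each parent in both crosses, so within them the same contrast has no difference in dose. The manual embryo libraries also held transcripts of endosperm domains. In BM, transfer layer genes summed to a mean of 3870 CPM there, 19.3 CPM in LCM embryos and 2310 CPM in endosperm. Zeins summed to 8.39 CPM in manual BM embryos and 1330 CPM in BM endosperm. How much endosperm RNA the manual libraries hold, and with it a difference in dose, was not tested. Manual embryos at 5 DAP gave 6005 calls (27.2%, with 12.9% higher and 14.4% lower in MB) and LCM embryos 1289 (6.96%, with 3.14% higher and 3.82% lower). Among calls with a difference of at least 1, 54.1% were lower in MB in manual embryos (898 higher, 1057 lower) and 52.2% in LCM embryos (477 higher, 521 lower), against 74.2% in endosperm. The share was 65.4% in manual embryos at 13 DAP, where 26.5% of genes were called, 15.2% higher and 11.3% lower. Of the genes higher in MB endosperm and tested in manual embryos, 305 (18.1%) were also higher there, which is 13.2% of the genes higher in embryos, and 302 (17.9%) were lower. Of those lower in MB endosperm, 598 (27.6%) were also lower in manual embryos, 21.6% of the genes lower there, and 253 (11.7%) were higher. Of genes lower by at least 1 in endosperm, 36.0% were lower in manual embryos, against 14.8% of all genes tested in both. The difference between tissues was tested directly as the interaction of cross and tissue, which was called for 4575 of 23153 genes (19.8%; 11.3% positive and 8.46% negative) against manual embryos and for 2433 of 21862 (11.1%; 5.91% positive and 5.22% negative) against LCM embryos. The count against LCM embryos ranged from 1193 to 3231 when single libraries were left out.

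Transfer layer genes were lower in MB in the manual embryo libraries too. This layer is part of endosperm, as is the embryo-surrounding region. Whether endosperm came along with the embryos collected by hand or by LCM was not tested. The sum of the transfer layer genes was 632, 657 and 619 CPM in manual MB libraries and 4010, 4020 and 3570 CPM in manual BM libraries. Of 12 genes 11 were called lower there, and the interaction was called for none. In LCM embryos the sum was 34.3, 9.87 and 90.2 CPM in MB and 14.8, 21 and 22.1 CPM in BM, far below the manual libraries. The embryo-surrounding genes fell in manual embryos, where the sum was 1900, 1870 and 1860 CPM in MB and 10200, 10700 and 9420 CPM in BM and 5 of 5 were called. In LCM embryos their sum was 29500, 7760 and 7400 CPM in MB and 3410, 6980 and 9290 CPM in BM, so the crosses overlapped. All 5 were tested there and none was called, with a median log2 fold change of 0.77. The interaction with tissue was called for 1 of the 5 against manual embryos and for none against LCM embryos. For some genes the difference itself differed between the tissues. TIP3-1 had a log2 fold change of -0.19 in manual embryos (interaction -4.29, adjusted p = 1.99e-05, edgeR), and abp5 had 0.39 (interaction -2.31, adjusted p = 1.36e-05, edgeR). aba1 was lower in MB manual embryos by 3.73 where it was higher in MB endosperm, and adh1 was lower there by 1.58. fie1 was lower in both, by 2 in manual embryos and 0.47 in endosperm, and Nkd1 was higher in both, by 1.72 in manual embryos. Of the 16 genes with the largest gains in endosperm, with and without informative names, 13 were tested in manual embryos, 6 were higher in MB there and 1 was lower. Of the 16 with the largest losses all were tested there, 13 were lower in MB and none was higher.

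**Figure D5:**
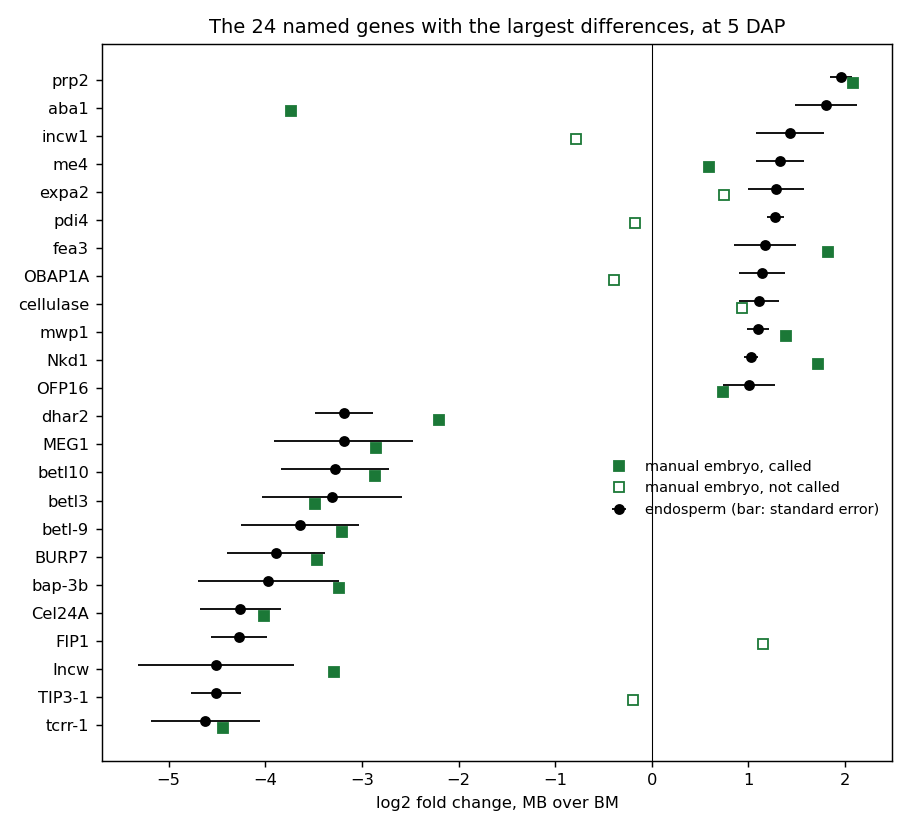
Log2 fold change of MB over BM (horizontal axis) at 5 DAP for the 12 named genes with the largest gains and the 12 with the largest losses (rows). Black points are endosperm with the standard error as a bar, green squares manual embryos, filled where called; for the transfer layer genes both lie far below 0, while TIP3-1 and FIP1 were called in endosperm and not in manual embryos.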

How the data were processed

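RNA-seq of the 6 endosperm libraries was compared, with embryo libraries alongside. The authors deposited raw read counts per gene model and FPKM values. The tools named in the submitters' processing notes are TopHat, HTSeq, Cufflinks 2.2.1 and FastQC. The build and the use of strand are not given, so reads of a gene and of its antisense partner cannot be told apart. Samples were grouped by title. The main test was that of edgeR 4.0.16, run in R 4.3.3 (filterByExpr, TMM, quasi-likelihood F test, two-sided, Benjamini-Hochberg over all genes tested, threshold 0.05). Standard errors are the log2 fold change over the root of F. CPM is a count over the library's total, times 1000000, and the authors' FPKM was used to compare levels between genes. Interactions used the same test.

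DESeq2 1.42.0, limma 3.58.1 on log2(FPKM + 1) or log2(FPKM + 0.1), other scalings and filters, thinned counts, a replicate block, 1 fit over 48 libraries and leaving out each library were alternatives; those on list counts were added after seeing the data. The test was checked on simulated data.

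Of 39656 gene models 18775 matched an entry of a RefSeq gene table (assembly Zm-B73-REFERENCE-NAM-5.0, names and neighbours only) and 2632 had an informative name. The text names the 12 genes each way that changed most and had an informative name (with at least 10 CPM in the higher cross, a difference of at least 1, no overlap), the 4 largest each way without one, the 4 highest near absence, and from each of 30 lists 2 to 4 called members with the largest change, or the most abundant where none was called. Members and lists were chosen with earlier results of these data known. Depths are given above; counting error is included in the test. A planned search for promoter motifs was not run.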

Additional observations from a re-analysis of the deposited data

Results flagged for a closer look

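The named genes below were set apart because the difference between MB and BM differed between endosperm and embryos of 5 DAP in a test of the interaction of cross and tissue (edgeR's quasi-likelihood test, adjusted p under 0.05 over all genes tested). Each value is the log2 fold change of MB over BM in endosperm minus that in embryos, so a positive value means a larger MB over BM ratio in endosperm. Endosperm and embryos also differ in how they were collected, which was not tested.

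For 11 genes that rose in MB endosperm the value was positive. Against manual embryos it was 5.56 for aba1, 2.25 for incw1, 1.5 for pdi4, 4.1 for GRMZM2G118873, 2.34 for the aquaporin gene NIP1-1, 1.03 for ocl1, 0.88 for rdr6, 1.93 for WRKY104, 1.16 for dmt101, 2.26 for zmm19 and 2.27 for adh1. Against LCM embryos it was 9.85 for aba1, 4.33 for incw1, 1.69 for pdi4, 5.81 for GRMZM2G118873, 1.78 for NIP1-1, 0.83 for ocl1, 0.96 for dmt101 and 1.62 for adh1. The wall-loosening gene expa2 (1.54) and GRMZM2G426732 (5.04) differed in the test against LCM embryos. GRMZM2G426732 was at 0.0305 CPM in MB and 0.177 CPM in BM LCM embryos and was not tested within them. The size of its value is therefore uncertain. GRMZM2G085038, without a count in BM endosperm, had 9.25 against manual and 8.5 against LCM embryos, values that depend on the prior count. The aleurone factor Nkd1 (-0.65) and the acyl carrier protein gene ACP (-0.63) rose less in endosperm than in manual embryos.

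Most named genes set apart here that fell in MB endosperm had a negative value. Their MB over BM ratio was lower there than in embryos. Only named genes with a called interaction are in this set, which leaves out most transfer layer genes. In manual embryos bHLH108, crr1, mbd105 and Sal1 were called higher in MB, by 2.0, 0.95, 0.35 and 0.21, and so went the other way. Against manual embryos the value was -4.29 for TIP3-1, -5.38 for FIP1, -0.94 for dhar2, -5.84 for GRMZM2G046952, -4.82 for GRMZM2G045638, -1.04 for ohp1, -3.35 for HB115 and -1.81 for both gln2 and C4ppdkZm1. It was -3.02 for MPI, -2.24 for crr1, -0.47 for RR10, -0.73 for hac108 and for sus2, -1.38 for abp4, -2.31 for abp5, -1.35 for AUX17, -1.42 for Cyclin-SDS and -1.73 for cycD4. It was -0.44 for Sal1, -1.64 for mbd123, -0.86 for mbd105, -4.66 for bHLH108, -2.96 for hsp18, -0.45 for mez1 and -0.82 for zpu1. It was -1.55 for PIP1-1, -2.21 for lkrsdh1, -0.72 for his2b5 and -1.15 for WRKY72. GRMZM2G045638 and hsp18 were not tested within manual embryos. GRMZM2G045638 was at 0.6 CPM in MB and 1.51 CPM in BM there, and hsp18 at 0.958 and 0.694 CPM. The size of the values of this pair is therefore uncertain.

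Against LCM embryos the value was -5.69 for TIP3-1, -6.34 for FIP1, -6.46 for the transfer layer gene betl3, -3.59 for dhar2, -5.27 for GRMZM2G046952, -3.54 for fl3, -1.03 for ohp1 and -8.02 for HB115. It was -1.67 for gln2, -0.83 for hac108, -1.15 for abp4, -2.28 for abp5, -2.49 for mbd123, -6.94 for bHLH108, -1.77 for RR10 and -1.94 for zpu1. It was -3 for lkrsdh1, -2.18 for sus2, -0.75 for mbd105 and -3.53 for hsp82. FIP1, betl3, HB115, bHLH108 and hsp82 were not tested within LCM embryos. FIP1 was at 0.77 CPM in MB and 0.144 CPM in BM there, and betl3 at 1.09 and 0.0923 CPM. The size of the values of these untested genes is therefore uncertain.

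A smaller group fell in MB endosperm but less than in manual embryos. The value was 1.57 for the Polycomb gene fie1, 1.31 for yuc, 0.79 for tub3, 1.39 for sdh1, 0.71 for fl3 and 0.72 for GRMZM2G046532. For fl3 the test against LCM embryos went the other way, as given above.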

How the results depend on the processing

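Of 101 named genes called in endosperm, none changed direction under any setting. RLE size factors or a minimum of 1 CPM ended no call, DESeq2 ended 6, and 1 fit over all 48 libraries ended 55; the cause was not tested. Leaving out a BM library ended 29 to 31 and leaving out an MB library 13 to 16.

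In the fit over all 48 libraries 822 genes were called (237 higher and 585 lower in MB), 625 of them by at least 1 (124 higher, 501 lower), and 472 in the interaction with manual embryos. Leaving out 1 library gave 2436 to 4750 calls (942 to 1958 higher, 1494 to 2792 lower), 1078 to 1851 by at least 1 (276 to 440 higher, 769 to 1411 lower), 3555 to 4667 in the interaction with manual embryos and 1193 to 3231 in that with LCM embryos. With limma on log2(FPKM + 1), 732 genes were called by at least 1 (132 higher, 600 lower), and 795 without the filter (145 higher, 650 lower).

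By size, under 0.5 the 821 genes higher and 547 lower became 502 and 300 by DESeq2, 8 and 1 in the fit over all libraries, 504 and 332 by limma without the filter, 354 lower by limma with a pseudocount of 0.1, and 284 to 793 and 191 to 490 without single libraries. From 0.5 to 1.5 they became 166 and 196 in the fit over all libraries and 531 to 994 and 801 to 1472 without single libraries. From 1.5 to 3 they became 38 and 186 in the fit over all libraries, 33 and 208 by limma, 33 and 216 by limma without the filter, 65 higher with a pseudocount of 0.1, and 93 to 148 and 298 to 611 without single libraries. At 3 or more they became 42 and 280 by DESeq2, 68 and 341 without the filter on counts, 2 and 54 by limma, 119 lower with a pseudocount of 0.1, 2 and 58 by limma without the filter, 9 higher with counts thinned to the smallest library, and 17 to 32 and 166 to 253 without single libraries.

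Genes near absence numbered 11 in BM and 77 in MB with a minimum of 1 CPM, 2 in MB with no count allowed, and 4 to 15 in MB without single libraries. The uncalled ESR1, esr1 and ESR3 became -0.91, -0.48 and -0.41 without MB replicate 2 and 1.82, 2.26 and 2.52 without BM replicate 3. esr6 became 0.03 with the replicate block, 1.33 without BM replicate 3, 0.09 and 0.38 without MB replicates 1 and 3, and -1.34 without MB replicate 2. ebe1, near 0 throughout, became 0.08 without BM replicate 2, 0.01 without MB replicate 1, -0.12 without BM replicate 3, and 0 or 0.01 by limma.

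Replicate numbers did not pair the libraries, since deviations of libraries with the same number correlated at 0.072, 0.053 and 0.096; each MB library correlated best with its own number, a hint from the data and not from the design. With the number as a block 4792 genes were called, among them 95.7% of the 4200, and the transfer layer list kept 2 of its 10 calls.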

Other observations

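The direction of the calls changed with the level of the gene. Of 2035 genes with a mean of at least 100 CPM, 17.9% were higher and 10.5% lower in MB, but among those that differed by at least 1 only 2 were higher and 28 lower. Of 7378 genes from 1 to 10 CPM, 6.45% were higher and 13.2% lower. Of 243 genes that stood in endosperm at 5 CPM or more and at 8 times every kind of embryo, 9.47% were higher and 28.0% lower, with a median log2 fold change of -0.32, against 9.05% and 12.2% over all genes tested.

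Along the annotated order of genes, the next gene after one higher in MB was also higher in 10% of cases, against 8.67% of all ordered genes. After one lower in MB the next was lower in 15.6%, against 12.7%.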
